A study of Mus musculus with 30 samples.

Results

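The genes described here are 37 genes of neutrophil granules and neutrophil maturation, chosen by name from a list of known neutrophil genes out of the 54532 genes in the count tables. All 37 were found by symbol in the tables of both tissues. They fall into 3 classes, with 6 primary granule and promyelocyte genes (Elane, Mpo, Prtn3, Ctsg, Ms4a3, Fcnb), 14 secondary granule and immature stage genes (Ngp, Ltf, Camp, Lcn2, Mmp8, Cd177, Itgb2l, Chil3, Cebpe, Hp, Pglyrp1, Lrg1, Wfdc21, Ifitm6) and 17 late-stage genes (S100a8, S100a9, Mmp9, Mmp25, Cxcr2, Csf3r, Retnlg, Padi4, Ly6g, Anxa1, Il1r2, Trem1, Trem3, Clec4d, Clec4e, Pygl, Slfn4). The choice rule used no measured value, but the list and its classes were set with earlier results of these data known. S100a9 also stands among the markers that the study picked from these platelet libraries, so its values are no independent evidence of direction. In the study's qPCR of platelets from a validation cohort, S100a9 did not differ significantly between control, early tumor and macroscopic tumor mice. The groups of that cohort were set by tumor growth.

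Polyadenylated RNA of blood platelets and of peripheral blood mononuclear cells (PBMCs) was sequenced from female C57BL/6 mice of 6 to 8 weeks of age at the start. C group received 100 µl of HBSS, a salt solution, under the skin of the right flank. S group received 2000 cells of B16F10, a mouse melanoma cell line, and no tumor was visible at autopsy on day 14, whereas O group received 100000 B16F10 cells and is labelled as large tumor or late stage. Each group and tissue had 5 libraries, each from RNA pooled over 3 to 10 mice according to the labels, so a replicate is a pool and an SD or SE describes the spread between 5 pools. The study's methods give another number of mice than the labels for 2 platelet pools of S group, and a label on platelet libraries that names their cells as PBMC goes against their titles and platelet markers. In the study's growth experiment most mice given this number of cells stayed free of visible tumors. Most S group mice might therefore never have grown one. O group pools held 3 to 5 mice and those of the other groups 4 to 10, and O group libraries 1 and 4 were pools of 3. Platelets were pelleted from platelet-rich plasma and PBMCs were taken on a density medium from the rest of the blood. Neither procedure was meant to collect neutrophils, and in bulk RNA fewer neutrophils and less RNA per neutrophil cannot be told apart.

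Neutrophils are made in the bone marrow and carry granules that are filled in sequence. The enzymes of primary granules, such as neutrophil elastase and myeloperoxidase, are transcribed in promyelocytes. Secondary granule proteins such as lactoferrin and the cathelicidin are transcribed in myelocytes and metamyelocytes. Mature cells in the blood have largely stopped both programs and carry mRNA of the calcium-binding alarmins S100a8 and S100a9 and of surface receptors such as Cxcr2 and Csf3r. Secondary granule mRNA in blood is for this reason often read as a mark of young neutrophils released from the marrow.

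Total counts per library were 12259036 to 25360080 in platelets and 13390983 to 15973449 in PBMCs. Values are counts per 1000000 counts after TMM normalization (CPM), scaled within each tissue, unless another scale is named. Sums over a list of markers are instead CPM of the raw totals, with no TMM scaling, throughout, and are not on the scale of the member values. Library 1 of the O group stood apart in both tissues. Its erythroid genes (Hba-a1, Hba-a2, Hbb-bs, Hbb-bt, Alas2) summed to 407518 CPM in platelets, against 41650 to 286054 in the other 14 platelet libraries, and its TMM factors were the lowest of each tissue (0.553 in platelets and 0.551 in PBMCs). Platelet markers (Pf4, Ppbp, Itga2b, Gp9, Gp1bb) summed to 10752 to 40060.3 CPM in platelet libraries and 568 to 4468 in PBMC libraries. Among PBMC libraries, those numbered 4 and O group library 1 held the most neutrophil marker counts (1787 to 3831 CPM). Libraries 1 of C group and S group held 129.6 and 122 CPM of eosinophil markers (Siglecf, Ccr3, Epx, Prg2) against 6.58 to 34.9 elsewhere. The sum of 6 neutrophil markers (S100a8, S100a9, Ly6g, Csf3r, Cxcr2, Retnlg) was 142 to 1806 CPM in platelets and 314 to 3831 in PBMCs. These marker mRNAs were thus read in all 30 libraries, although Ly6g was at 0 in 1 platelet library. The sum is mostly S100a8, S100a9 and Csf3r, and which cells carried them was not tested.

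**Figure D1:**
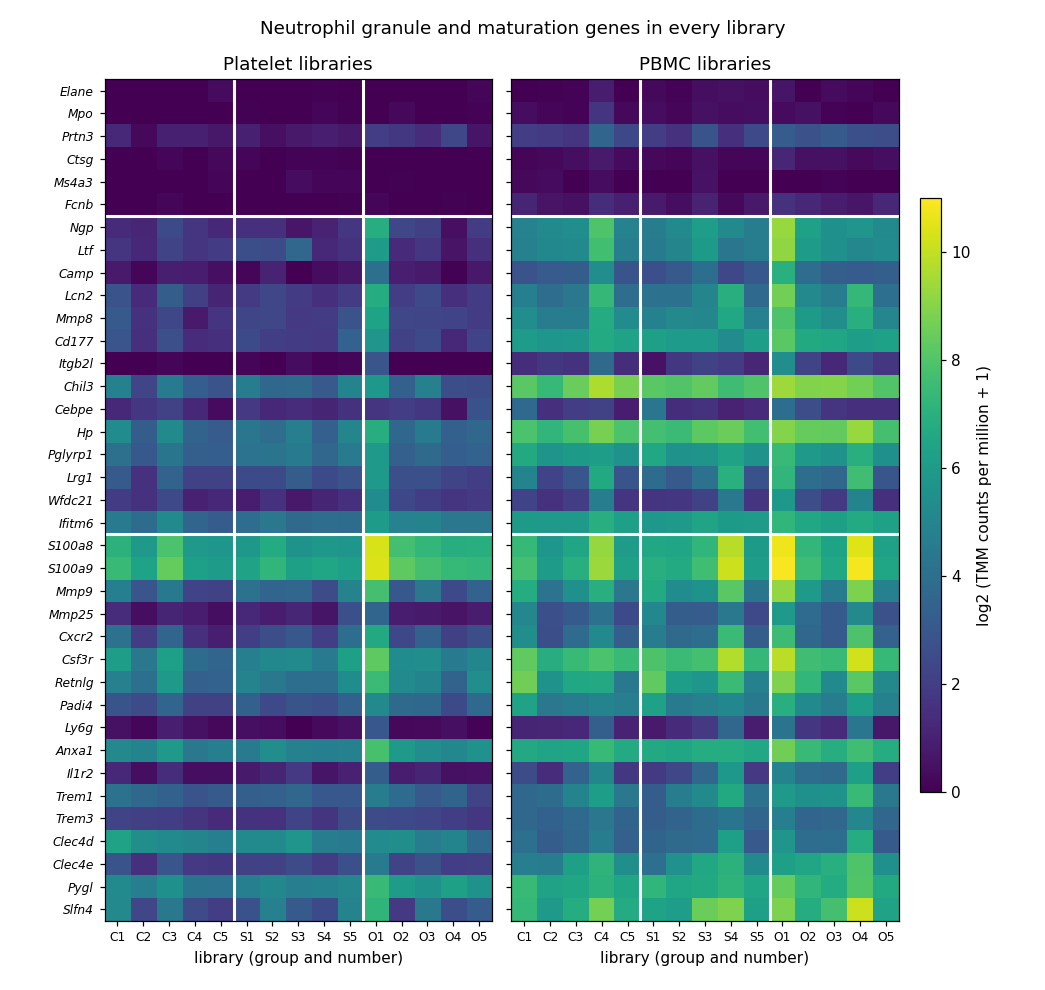
Levels of the 37 members (rows, grouped into primary granule, secondary granule and late-stage genes by white lines) in the 15 platelet and 15 PBMC libraries (columns, C, S and O group with library number); color is log2(CPM + 1). Library O1 is the brightest column of the platelet panel, the primary granule rows are dark in both panels, and libraries C4, S4, O1 and O4 stand out among PBMC late-stage rows.

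Platelet O group library 1 held the highest of the 15 platelet values for 30 of the 37 members, including 13 of 14 secondary granule and 16 of 17 late-stage genes. The exceptions were 5 primary granule genes, Cebpe and Clec4d. PBMC O group library 1 held the highest of the 15 PBMC values for 20 members, 10 of them secondary granule genes. The low TMM factors of these libraries raise the CPM of every gene in them. How many of all genes were highest there was not counted, so these counts describe the members alone.

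Per kilobase of exon, the scale on which genes can be set beside each other, S100a9 had the highest median level of the members in both tissues. Its median was 288 CPM per kilobase in the 15 platelet libraries and 230.3 in the 15 PBMC libraries. S100a8, which forms the calprotectin dimer with S100a9, was second in platelets at 156 CPM per kilobase and ranked 5 in PBMCs at 134, with ranges between libraries (67.9 to 1877 and 76.7 to 2405) that overlapped those of its neighbours in the order. Retnlg, a resistin-like secreted protein, followed in platelets at 44.3 CPM per kilobase, then Clec4d, a C-type lectin receptor, at 22.7 and Ifitm6 at 21.5. In PBMCs the chitinase-like lectin Chil3 came second (197.5 CPM per kilobase), and Retnlg (159) and the hemoglobin scavenger haptoglobin, Hp (146), came next. S100a8 and S100a9 together took 22.4% to 57.1% of all member counts in a platelet library and 7.55% to 34.8% in a PBMC library.

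The primary granule genes other than Prtn3 were at or near 0 in nearly every library. Elane, which encodes neutrophil elastase, was read in 3 of 15 platelet libraries and 11 of 15 PBMC libraries, and its highest level was 0.258 CPM in platelets and 0.848 CPM in PBMCs. Its platelet values for libraries 1 to 5 were 0, 0, 0, 0 and 0.258 CPM in C group, 0, 0, 0, 0.0414 and 0 in S group, while O group was at 0, 0, 0, 0 and 0.153. Its PBMC values were 0, 0.0601, 0.0672, 0.848 and 0 CPM in C group, 0.171, 0.0646, 0.337, 0.398 and 0.277 in S group, while O group was at 0.518, 0, 0.236, 0.0981 and 0. The groups overlapped in both tissues. Mpo, myeloperoxidase, was at 0, 0, 0, 0 and 0 CPM in the platelet libraries of C group, 0.0531, 0, 0, 0.124 and 0.0521 in S group, while O group was at 0, 0.169, 0, 0 and 0.0918. Mpo in PBMCs was at 0.278, 0.12, 0.0672, 2.12 and 0.177 CPM in C group, 0.285, 0.129, 0.405, 0.284 and 0.332 in S group, while O group was at 0.259, 0.419, 0.0788, 0 and 0.191, where library 4 of C group was the one value above 1 CPM. Ctsg, cathepsin G, and Ms4a3, a membrane protein of granulocyte precursors, reached at most 1.29 and 0.472 CPM in any library. Fcnb, ficolin B, was at 0, 0, 0.0973, 0 and 0 CPM in platelets of C group, 0, 0, 0, 0 and 0.0521 in S group, while O group was at 0.135, 0, 0, 0.0505 and 0. PBMC values of Fcnb were 1.22, 0.481, 0.403, 1.7 and 0.947 CPM in C group, 0.74, 0.323, 1.08, 0.171 and 0.664 in S group, while O group was at 1.94, 1.34, 0.788, 0.588 and 1.33, and the groups overlapped. Elane, Mpo, Ctsg and Ms4a3 did not pass the filter on low counts in any comparison within a tissue, and Fcnb passed it in PBMCs alone.

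Prtn3, proteinase 3, was the one primary granule gene with reads in all 30 libraries. In platelets it was at 1.36, 0.171, 0.973, 0.927 and 0.645 CPM in C group, 0.956, 0.35, 0.662, 0.911 and 0.678 in S group, while O group was at 2.96, 2.42, 1.64, 4.14 and 0.52. Libraries 1 to 4 of O group were above every S group and C group library, and library 5 of O group was not. In PBMCs Prtn3 was at 2.95, 2.71, 2.28, 11 and 4.2 CPM in C group, 3.02, 1.94, 6.28, 1.82 and 4.32 in S group, while O group was at 8.16, 5.53, 7.72, 5.49 and 5.08, where the O group libraries were close together and library 4 of C group was highest. Prtn3 lies at chr10:79874476-79883174 on the plus strand of GRCm38 (GENCODE vM21, matched by gene ID; the submitters' notes name mm9 for their alignment, and no coordinate of theirs was used). The next gene of the cluster shown here, Elane, at chr10:79886247-79888215 on the same strand, had too few reads to show whether it shared the pattern. The exons of Prtn3 overlap those of Plppr3 on the opposite strand over 159 of 1732 bases, and the library kit does not mark strand, so part of the Prtn3 reads could not be told from Plppr3 reads.

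The 250 bases before the RefSeq start of 6 members are shown because these genes carry the contrasts that follow, S100a8 and S100a9 as abundant late-stage genes, Ngp and Ltf as secondary granule genes whose levels were set by few libraries, and Prtn3 beside Elane as primary granule neighbours with reads in all libraries and in some. The sequences are RefSeq's for GRCm38.p6, written 5′ to 3′ on the gene's strand, and were available for 32 of the 37 members. For all but S100a9 the RefSeq start lies inside the GENCODE gene span, which takes in every transcript, and for Prtn3 it lies far inside. Capitals mark matches, on either strand, to TTGCNNAA, the letters of a C/EBP-like site, or to GAGGAAGT, the letters of a PU.1-like site, 2 of 9 patterns tried and picked after their matches were seen.
S100a8, chr3:90668821-90669070, plus strand: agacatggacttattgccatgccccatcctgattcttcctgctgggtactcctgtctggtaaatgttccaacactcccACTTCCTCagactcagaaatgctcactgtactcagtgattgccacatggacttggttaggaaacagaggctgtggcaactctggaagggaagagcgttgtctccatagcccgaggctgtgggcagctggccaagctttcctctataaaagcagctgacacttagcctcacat
S100a9, chr3:90695722-90695971, minus strand: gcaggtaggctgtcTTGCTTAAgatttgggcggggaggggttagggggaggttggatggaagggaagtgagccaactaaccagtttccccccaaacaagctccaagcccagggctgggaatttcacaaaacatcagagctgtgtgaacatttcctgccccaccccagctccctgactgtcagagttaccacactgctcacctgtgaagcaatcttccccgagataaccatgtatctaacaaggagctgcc
Ngp, chr9:110419558-110419807, plus strand: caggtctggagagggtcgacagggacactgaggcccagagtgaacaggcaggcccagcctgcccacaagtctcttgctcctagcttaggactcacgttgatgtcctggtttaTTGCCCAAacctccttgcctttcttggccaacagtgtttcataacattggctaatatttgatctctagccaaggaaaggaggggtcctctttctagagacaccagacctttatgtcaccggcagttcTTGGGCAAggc
Ltf, chr9:111019042-111019291, plus strand: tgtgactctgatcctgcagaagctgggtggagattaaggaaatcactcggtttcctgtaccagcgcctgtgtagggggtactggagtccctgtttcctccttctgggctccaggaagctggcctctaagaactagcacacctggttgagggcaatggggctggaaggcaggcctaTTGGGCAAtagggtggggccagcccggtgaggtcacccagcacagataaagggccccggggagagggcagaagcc
Prtn3, chr10:79879417-79879666, plus strand: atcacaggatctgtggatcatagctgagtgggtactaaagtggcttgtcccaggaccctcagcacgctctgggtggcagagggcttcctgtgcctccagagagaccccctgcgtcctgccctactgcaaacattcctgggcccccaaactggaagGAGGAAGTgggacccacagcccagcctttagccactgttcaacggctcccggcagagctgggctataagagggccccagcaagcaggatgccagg
Elane, chr10:79886062-79886311, plus strand: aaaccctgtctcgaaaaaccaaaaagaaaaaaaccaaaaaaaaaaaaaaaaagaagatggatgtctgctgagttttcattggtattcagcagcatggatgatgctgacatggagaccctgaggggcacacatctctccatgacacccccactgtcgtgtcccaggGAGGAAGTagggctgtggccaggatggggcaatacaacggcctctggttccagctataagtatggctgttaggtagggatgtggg
TTGCNNAA stood in the windows of 10 of the 32 members (Fcnb, Lcn2, S100a9, Clec4e, Mmp8, Ngp, Ltf, Ly6g, Retnlg and Anxa1) and in 9.56% of all 32851 windows. GAGGAAGT stood in those of 7 members (S100a8, Mmp8, Prtn3, Elane, Mpo, Ly6g and Itgb2l) and in 2.44% of all windows. Prtn3 and Elane share the second pattern and neither holds the first. A match describes the letters and is not a binding site.

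The platelet comparison of O group with C group asks whether mice with large tumors carried more neutrophil mRNA in the platelet fraction. Of the 37 members, 30 passed the filter on low counts. At an unadjusted P under 0.05, 10 of them were higher in O group and 0 lower, where 2.61% of all 13270 genes tested were higher and 2.17% lower. Called means past this threshold of the edgeR quasi-likelihood test, and adjusted P values are Benjamini-Hochberg values over all genes tested, none of which was under 0.05 for a member within a tissue. Those 10 were 1 primary granule gene (Prtn3), 4 secondary granule genes (Ngp, Lcn2, Mmp8, Wfdc21) and 5 late-stage genes (S100a8, S100a9, Padi4, Anxa1, Pygl). The median log2 fold change was 1.85 over 13 secondary granule genes and 1.37 over 16 late-stage genes, beside -0.01 over all genes tested. Much of this came from 1 library. Without O group library 1, 3 members were higher (Pygl, Prtn3 and Padi4) beside 1.8% of all genes, the secondary granule median was -0.12 and the late-stage median was -0.08.

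Pygl, liver glycogen phosphorylase, which releases glucose from glycogen and is also the form used by neutrophils, differed most clearly. Its platelet values were 37.9, 24.8, 45.2, 18 and 17.5 CPM in C group, 26.2, 34.1, 24.8, 27.2 and 33.5 in S group, while O group was at 167, 64.6, 49.6, 74.3 and 49.6. All 5 O group libraries were above all C group and S group libraries. The log2 fold change of O group against C group was 1.48 ± 0.38 (SE, adjusted P = 0.91), and 1.05 ± 0.29 (SE) without O group library 1. Pygl was the one member past the threshold in this comparison under each alternative tried. Padi4, the enzyme that citrullinates histones in neutrophil extracellular trap formation, was at 6.29, 4.79, 11.1, 3.44 and 3.55 CPM in C group, 9.56, 4.33, 6.32, 5.43 and 9.69 in S group, while O group was at 36.6, 13, 12.1, 4.54 and 12.7. Libraries 1, 2, 3 and 5 of O group were above every C group library and library 4 was not, and the log2 fold change was 1.4 ± 0.49 (SE, adjusted P = 0.91). Prtn3 changed by 1.5 ± 0.58 (SE, adjusted P = 0.91), and by 1.42 ± 0.61 (SE) without library 1.

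S100a8 and S100a9 were abundant in every platelet library. S100a8 was at 132, 58.9, 237, 59.5 and 53.6 CPM in libraries 1 to 5 of C group, 56.9, 108, 47.1, 57.7 and 54.2 in S group, while O group was at 1303, 209.7, 156, 113 and 118. O group library 1 was far above the rest, and libraries 1 and 3 of C group overlapped the remaining O group libraries. S100a9 was at 170.4, 81.7, 337, 72.5 and 64.1 CPM in C group, 81.1, 150.3, 75.6, 87.5 and 72.6 in S group, while O group was at 1368, 304, 215, 166 and 153, with the same libraries high. Log2 fold changes of O group against C group were 1.79 ± 0.73 (SE, adjusted P = 0.91) for S100a8 and 1.58 ± 0.68 (SE, adjusted P = 0.91) for S100a9. Without O group library 1 they were 0.46 ± 0.43 (SE) and 0.53 ± 0.47 (SE). Anxa1, the anti-inflammatory annexin A1, was at 35.1, 30.3, 60.9, 20.2 and 26.3 CPM in C group, 22.2, 40.9, 27.4, 26.1 and 27.7 in S group, while O group was at 222, 59, 41.3, 34.3 and 46. Its log2 fold change was 1.19 ± 0.51 (SE, adjusted P = 0.91) and the value without O group library 1 was 0.38 ± 0.29 (SE).

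The next 4 secondary granule genes were low in platelets outside that library. Ngp, neutrophilic granule protein, was at 1.48, 1.24, 4.62, 2.12 and 1.42 CPM in C group, 1.86, 1.89, 0.588, 1.08 and 2.35 in S group, while O group was at 114, 4.0, 3.29, 0.353 and 2.75. O group libraries 2, 3 and 5 lay within the range of C group and library 4 below it. Lcn2, the siderophore-binding lipocalin 2, was at 5.93, 1.54, 8.42, 3.25 and 1.23 CPM in C group, 2.66, 4.12, 2.72, 1.82 and 2.87 in S group, while O group was at 109.9, 3.04, 4.34, 1.82 and 2.85. Mmp8, neutrophil collagenase, was at 7.71, 1.97, 4.09, 0.729 and 2.19 CPM in C group, 3.93, 4.12, 2.5, 2.82 and 5.94 in S group, while O group was at 82.7, 4.11, 3.96, 3.58 and 2.81. In both genes the O group libraries other than 1 lay among the C group libraries. Wfdc21, a small whey acidic protein domain gene, was at 2.85, 2.01, 4.38, 0.994 and 1.42 CPM in C group, 0.797, 1.96, 0.662, 1.2 and 1.77 in S group, while O group was at 40.0, 4.28, 3.06, 2.17 and 2.51, and C group overlapped both other groups. The log2 fold changes of O group against C group were 3.44 ± 1.25 (SE, adjusted P = 0.91) for Ngp, 2.52 ± 1.13 (SE, adjusted P = 0.91) for Lcn2, 2.49 ± 1.02 (SE, adjusted P = 0.91) for Mmp8 and 2.08 ± 0.82 (SE, adjusted P = 0.91) for Wfdc21. Without O group library 1 they were 0.24, -0.45, 0.11 and 0.35 in the same order, so that Lcn2 turned its direction.

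Ltf, lactoferrin, was at 2.19, 1.33, 3.84, 2.25 and 2.9 CPM in platelets of C group, 5.31, 4.96, 11.2, 1.41 and 1.98 in S group, while O group was at 64.8, 1.47, 2.32, 0.505 and 1.87. Camp, the cathelicidin precursor, was at 0.712, 0.128, 0.925, 0.861 and 0.387 CPM in C group, 0.159, 1.05, 0, 0.29 and 0.573 in S group, while O group was at 15.5, 0.902, 0.748, 0.0505 and 0.673. Neither passed the threshold (log2 fold changes 2.42 and 2.44, adjusted P = 0.91 and 0.91), and the groups overlapped. Of the receptors, Cxcr2, which binds CXC chemokines, was at 16.4, 2.74, 11.1, 1.85 and 0.904 CPM in C group, 3.08, 5.1, 6.91, 2.98 and 14.9 in S group, while O group was at 101, 4.28, 9.34, 3.28 and 5.23. Csf3r, the G-CSF receptor, was at 71.4, 20.2, 72, 13.7 and 11.1 CPM in C group, 25.8, 34.2, 37, 22.2 and 74.7 in S group, while O group was at 308, 39.8, 41.3, 21.3 and 32.5. For both receptors libraries 1 and 3 were the high ones of C group and library 5 of S group, and O group overlapped both. Retnlg was at 26.3, 15.7, 58.4, 9.27 and 9.87 CPM in C group, 29.4, 20.2, 14.6, 14.8 and 39.7 in S group, while O group was at 180.0, 38, 30.3, 10.4 and 41.3. Ly6g, the surface antigen by which mouse neutrophils are usually sorted, was at 0.415, 0.128, 0.925, 0.397 and 0.194 CPM in C group, 0.372, 0.28, 0, 0.207 and 0.417 in S group, while O group was at 7.0, 0.169, 0.224, 0.353 and 0.0918, and did not pass the filter on low counts in any platelet comparison.

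**Figure D2:**
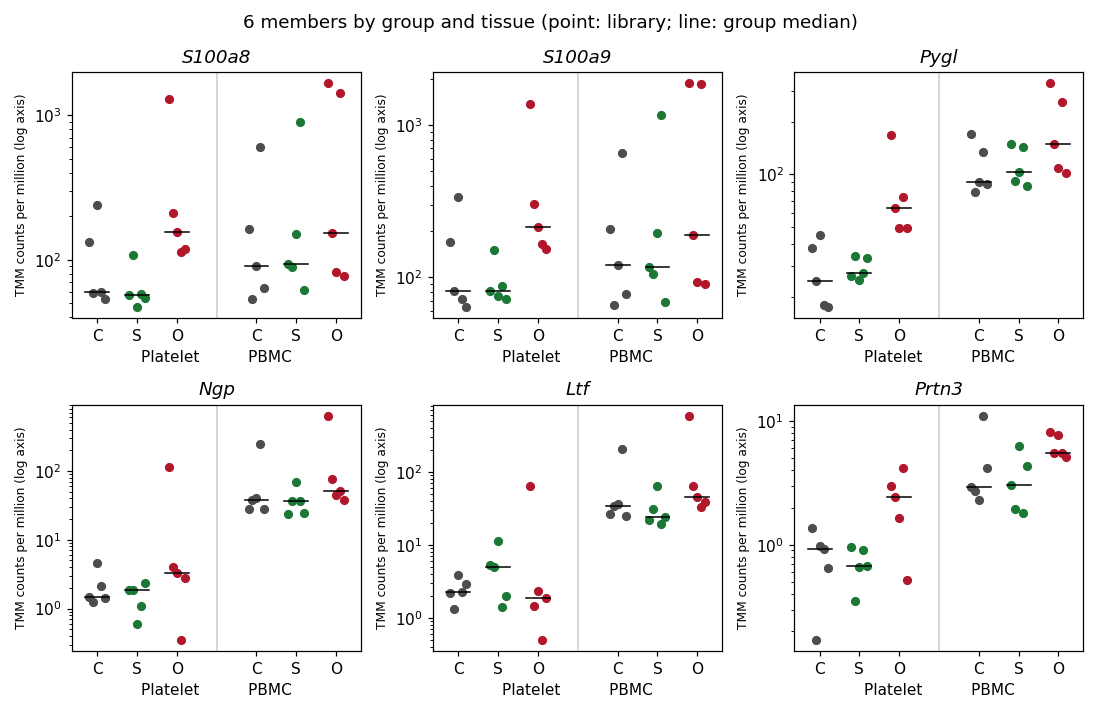
Each point is 1 library and each short line the median of 5, for S100a8, S100a9, Pygl, Ngp, Ltf and Prtn3 in C (grey), S (green) and O group (red), with platelets on the left and PBMCs on the right of each panel (CPM, log axis). Platelet O group libraries lie above all S group libraries for S100a8, S100a9 and Pygl, while the Ngp and Ltf groups overlap and 1 O group library is far above the rest in both tissues.

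The comparison of S group with O group in platelets asks how mice given few tumor cells differed from those with large tumors. Of 30 members tested, 13 were lower in S group and 0 higher at an unadjusted P under 0.05. Of all 13306 genes tested, 6.67% were lower and 7.23% higher. The 13 members were Prtn3, the secondary granule genes Ngp, Camp, Lcn2, Mmp8, Wfdc21 and Ifitm6, and the late-stage genes S100a8, S100a9, Retnlg, Padi4, Anxa1 and Pygl. S100a8 had a log2 fold change of -2.53 ± 0.67 (SE, adjusted P = 0.225) and S100a9 one of -2.22 ± 0.59 (SE, adjusted P = 0.225), and for both every S group library was below every O group library. Wfdc21, with -2.95 ± 0.84 (SE, adjusted P = 0.25), and Pygl, with -1.47 ± 0.31 (SE, adjusted P = 0.225), likewise did not overlap. Ifitm6, an interferon-induced transmembrane family gene, was at 22.7, 13.8, 37, 11.1 and 8.13 CPM in C group, 14.3, 19.8, 13, 14.1 and 13.8 in S group, while O group was at 66.7, 28.1, 29.5, 19.4 and 19.7, and its log2 fold change was -1.11 ± 0.31 (SE, adjusted P = 0.245). Those for Prtn3 and Anxa1 were -1.66 ± 0.49 (SE, adjusted P = 0.258) and -1.47 ± 0.47 (SE, adjusted P = 0.269). For the remaining called members the log2 fold changes were -3.94 for Ngp, -3.06 for Lcn2, -1.15 for Padi4, -2.27 for Mmp8, -2.99 for Camp and -1.33 for Retnlg. None of these 6 passed without O group library 1, where they were -0.78, -0.13, -0.64, 0.05, -0.57 and -0.40, so that Mmp8 turned.

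Without O group library 1, 7 members were lower in S group (Pygl, S100a8, S100a9, Ifitm6, Wfdc21, Anxa1 and Prtn3) and 2 were higher (Pglyrp1 and Ltf), where 6.41% of 13661 genes were lower and 8.51% higher. The log2 fold changes were then -1.24 ± 0.27 (SE) for S100a8, -1.2 ± 0.27 (SE) for S100a9 and -1.07 ± 0.17 (SE) for Pygl, and for Wfdc21, Anxa1 and Ifitm6 they were -1.27, -0.69 and -0.73. These 7 lower genes stayed past the threshold under each alternative that gave them a P value, and DESeq2 gave none for S100a8 and Wfdc21. The secondary granule median moved from -1.43 to 0.05 and the late-stage median from -1.23 to -0.04 when that library was left out. With DESeq2, 7 of the 20 members that kept a P value were lower, beside 4.08% of all genes, and the Benjamini-Hochberg adjusted P was 0.00498 for Pygl and 0.0114 for S100a9. In sum, and as CPM of the raw totals, lymphocyte markers were higher in S group, with ranges that overlapped. T cell markers (Cd3d, Cd3e, Cd3g, Cd4, Cd8a) summed to 70.6 to 172 CPM in S group and 25.2 to 94.1 in O group, and NK cell markers (Ncr1, Klrb1c, Klrk1, Gzma, Prf1) to 57.3 to 99.1 and 13.6 to 69.3 CPM, and their part in the result was not tested.

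S group and C group in platelets differed in few members, which is the comparison of mice given few tumor cells with mice given none. Of 29 members tested, 1 was higher in S group and 0 lower, where 4.29% of all 13268 genes tested were higher and 2.13% lower. The one was Pglyrp1, a peptidoglycan recognition protein of granules, at 15.7, 7.23, 18.3, 9.14 and 8.71 CPM in C group, 17, 17.5, 21.6, 11.4 and 23 in S group, while O group was at 59.2, 9.41, 12.8, 8.68 and 10.1. Its log2 fold change was 0.60 ± 0.26 (SE, adjusted P = 0.769) and the groups overlapped. Wfdc21, Ltf and S100a8 came next with -0.87 ± 0.43 (SE, adjusted P = 0.769), 0.94 ± 0.47 (SE, adjusted P = 0.769) and -0.74 ± 0.39 (SE, adjusted P = 0.769), none past the threshold. The median was 0.01 over 12 secondary granule genes and 0.02 over 16 late-stage genes, beside -0.01 over all genes. The direction of the few calls turned with the library left out. Members were higher, 3 of them, without C group library 3 or S group library 4, but 2 were lower and 0 higher without C group library 4 or 5 or S group library 2, and 1 lower and 0 higher without C group library 2. Without S group library 5 there was 1 each way, and without S group library 3 there were 0. Over these 8 fits 2.48% to 5.24% of all genes were higher and 1.78% to 2.72% lower. DESeq2 gave 2 higher and 2 lower, beside 2.81% and 1.64% of all genes, and the fit of all 3 groups together 0, beside 3.58% and 1.39%.

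**Figure D3:**
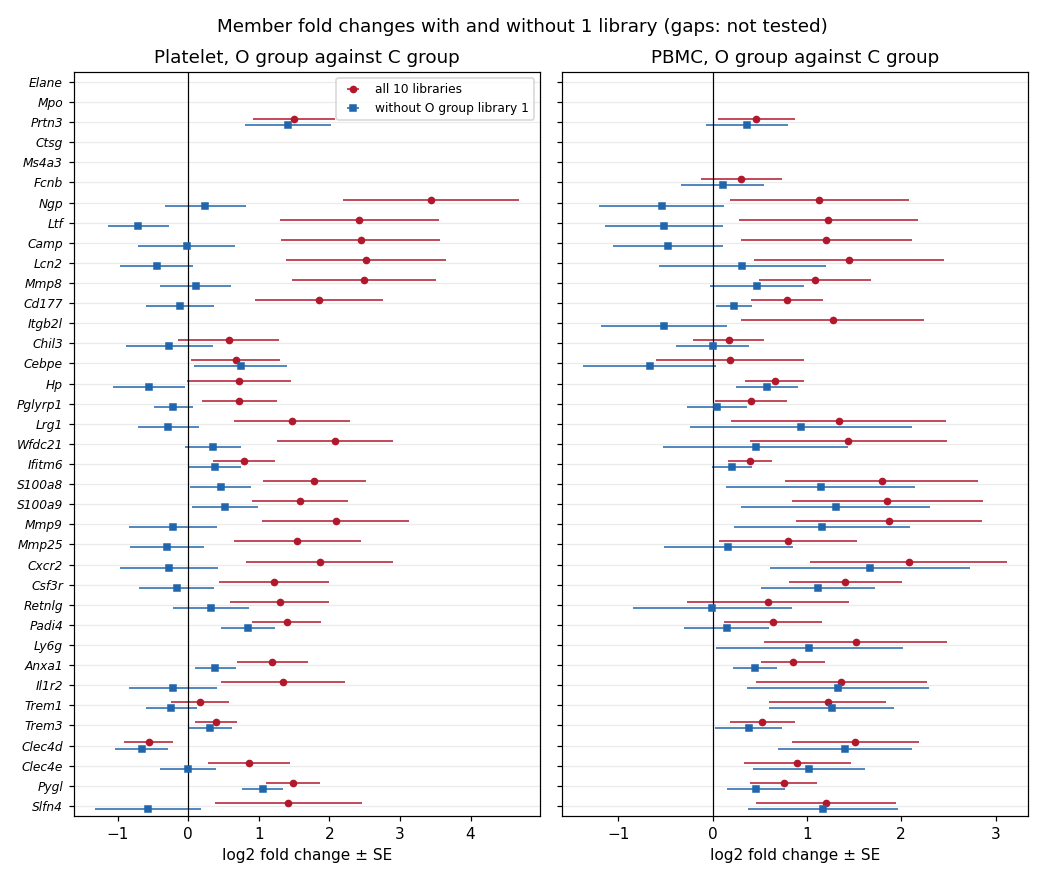
Log2 fold change with its SE (x axis) of each member tested (y axis) for O group against C group, in platelets (left) and PBMCs (right), from all 10 libraries (red circles) and without O group library 1 (blue squares). In platelets the values of Ngp, Ltf, Lcn2 and Mmp8 fall from above 2 to near or below 0 without that library, while Pygl, Prtn3 and Padi4 remain well above 0.

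In PBMCs the members of O group were higher than those of C group in sign but seldom past the threshold. Of 37 members 33 were tested, and all 33 had a positive log2 fold change, with medians of 1.11 over 14 secondary granule genes and 1.22 over 17 late-stage genes beside 0.00 over all genes tested. Leaving out O group library 1 gave 27 positive and 6 negative values and medians of 0.13 and 1.12, and leaving out O group library 4 gave 33 positive values and medians of 0.97 and 0.63. At an unadjusted P under 0.05, 3 late-stage genes were higher (Anxa1, Csf3r and Clec4d) and 0 members lower, where 7.56% of all 14726 genes tested were higher and 4.39% lower, so that the share of members called was near the background in this fit. Anxa1 was at 97.6, 83.8, 90.3, 168 and 103 CPM in C group, 101, 90.0, 110.2, 112 and 92.2 in S group, while O group was at 388, 170.1, 116, 197 and 111. Its log2 fold change was 0.85 ± 0.34 (SE, adjusted P = 0.381), and O group libraries 3 and 5 were below C group library 4. Csf3r was at 316, 114, 175, 233 and 172 CPM in C group, 243, 181, 211, 861 and 159 in S group, while O group was at 942, 198, 177, 1212 and 164, with a log2 fold change of 1.41 ± 0.60 (SE, adjusted P = 0.398). Clec4d was at 15.2, 8.54, 12, 23.7 and 9.35 CPM in C group, 10.5, 13, 13.2, 72.6 and 7.47 in S group, while O group was at 52, 14.1, 14.5, 111 and 7.62, with 1.51 ± 0.67 (SE, adjusted P = 0.41). In the last 2 genes libraries 1 and 4 carried the O group, library 4 the S group, and O group libraries 2, 3 and 5 were no higher than the highest of C group.

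The number of members called moved with single PBMC libraries. It was 0 without O group library 1 or without C group library 2, 3 or 5, 6 without O group library 3, 10 without O group library 5 and 21 without C group library 4. Of all genes, 4.92% to 6.49% were higher in the fits that gave 0, and 8.2%, 10.4% and 7.0% in the last 3. With the library number as a block 15 members were higher, among them S100a8, S100a9, Pygl and Padi4, where 7.36% of all genes were. The labels do not say that a number marks a shared batch, and same-numbered libraries of these 2 groups deviated together in 4 of 5 pairs. Leaving out the libraries numbered 4 in both groups gave 15 members higher (5.51% of all genes), and leaving out those numbered 1 gave 0 (4.47%). With the libraries numbered 4 left out of both groups, Prtn3 had a log2 fold change of 1.12 ± 0.24 (SE), Ngp 2.55 ± 0.90 (SE) and Ltf 2.58 ± 0.89 (SE). That fit still held O group library 1, at 632 CPM for Ngp and 584 CPM for Ltf. With all libraries the largest values were 0.46 among primary granule and 1.45 among secondary granule genes, with 0 of either class called. As CPM of the raw totals, erythroid genes summed to 67357 to 261494 CPM in O group and 33759.6 to 97442 in C group, and T cell markers to 210.1 to 532 and 508 to 740 CPM. NK cell markers summed to 83.8 to 261 CPM in O group and 262 to 416 in C group, without overlap. All of these sums moved with the group, and their part in the result was not tested.

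S100a8 in PBMCs was at 163, 53.2, 90.4, 607 and 64 CPM in C group, 93.1, 89.7, 151, 895 and 62 in S group, while O group was at 1669, 154, 82, 1419 and 77.4. S100a9 was at 207, 65.7, 120.2, 657 and 78.3 CPM in C group, 118, 105, 194, 1157 and 69.5 in S group, while O group was at 1875, 190.3, 93.8, 1854 and 90.2. In all 3 groups library 4 was several times above the typical library, and O group library 1 was as high. Cxcr2 was at 42.2, 5.29, 13.4, 37.1 and 9.05 CPM in C group, 24.6, 13.1, 14.1, 182 and 8.41 in S group, while O group was at 185, 11.7, 7.64, 245 and 9.91. Ly6g in PBMCs was at 1.22, 1.26, 1.41, 9.2 and 1.06 CPM in C group, 0.74, 1.48, 2.5, 11.5 and 0.775 in S group, while O group was at 18, 2.35, 1.58, 19.1 and 0.635. Ly6g was high in the same libraries, and Cxcr2 in these and in C group library 1. Retnlg was at 388, 49.2, 94.5, 99 and 20.2 CPM in C group, 318, 69, 54.1, 181 and 27.5 in S group, while O group was at 469.7, 153, 37.9, 294 and 35.6. Here library 1 was the highest of C group and S group, the libraries with the most eosinophil marker counts. Padi4 was at 80.0, 19.8, 23.5, 30.4 and 25 CPM in C group, 77.6, 22, 27, 34.5 and 21 in S group, while O group was at 123, 37.3, 24.4, 70.5 and 27.4, and followed the same libraries. Pygl in PBMCs was at 170.4, 79.6, 90.4, 133 and 87.7 CPM in C group, 149, 91.2, 103, 142 and 86.2 in S group, while O group was at 332, 148, 109, 259.8 and 101, and the groups overlapped. Clec4e, the receptor Mincle, was at 25.4, 24.4, 74.9, 143 and 43.5 CPM in C group, 15.3, 46.6, 91.9, 134 and 36.6 in S group, while O group was at 76, 88.3, 121, 251 and 45.4.

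In PBMCs some secondary granule genes were high in other libraries than the late-stage genes and some in the same. Ngp was at 28.1, 37.9, 40.7, 249 and 28 CPM in C group, 23.3, 36.5, 70.1, 36 and 24.3 in S group, while O group was at 632, 77.1, 44.8, 52 and 37.5. Ltf was at 26.4, 34.4, 35.9, 204 and 25.1 CPM in C group, 22.2, 30.9, 63, 19.2 and 24.2 in S group, while O group was at 584, 64.8, 45.1, 33.5 and 38.6. The values of Camp were 6.01, 8.0, 8.6, 41.2 and 6.27 CPM in C group, 5.46, 7.36, 14.8, 4.15 and 7.14 in S group, while O group was at 124, 14.4, 9.06, 7.94 and 9.02. For these 3 genes C group library 4 and O group library 1 were high, whereas libraries 4 of S group and O group were not. Lcn2 was at 25.9, 14.4, 19.4, 158 and 14.4 CPM in C group, 15.9, 16.8, 31.5, 118 and 12.5 in S group, while O group was at 406, 35.3, 24, 158 and 15.2. Mmp8 was at 41.5, 24.7, 23.8, 107 and 38.5 CPM in C group, 27.9, 35.7, 32.9, 94.7 and 27.7 in S group, while O group was at 242, 62, 42.5, 123 and 33.4. Wfdc21 was at 3.62, 1.92, 3.02, 24.4 and 2.25 CPM in C group, 2.28, 2.32, 3.51, 20.1 and 2.21 in S group, while O group was at 58.1, 5.03, 2.6, 29.9 and 1.84. These last 3 were high in all 3 libraries numbered 4 as well as in O group library 1, as S100a8 and S100a9 were.

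S group against O group in PBMCs gave 11 of 33 members lower in S group and 0 higher, where 7.80% of all 14686 genes tested were lower and 4.43% higher. They were Prtn3, 8 secondary granule genes (Chil3, Ifitm6, Ltf, Cd177, Ngp, Camp, Itgb2l, Hp) and the late-stage genes Anxa1 and Pygl. Chil3 was at 294, 166, 352, 808 and 429 CPM in C group, 286, 257, 322, 190.3 and 252 in S group, while O group was at 668, 489, 491, 404 and 256, with a log2 fold change of -0.82 ± 0.23 (SE, adjusted P = 0.296). Ifitm6 was at 63.3, 60.2, 61.7, 121 and 72.8 CPM in C group, 57.2, 60.9, 85.2, 62.7 and 67.4 in S group, while O group was at 149, 92.4, 75.1, 105 and 77.4, with -0.58 ± 0.19 (SE, adjusted P = 0.318). Hp was at 234, 151, 219, 425 and 235 CPM in C group, 212, 179, 299, 354 and 205 in S group, while O group was at 493, 334, 328, 625 and 218, with -0.67 ± 0.28 (SE, adjusted P = 0.374). In each of these genes the groups overlapped, in Chil3 through O group library 5 alone. Anxa1 had -0.95 ± 0.30 (SE, adjusted P = 0.315) and Prtn3 -0.87 ± 0.33 (SE, adjusted P = 0.352). For Ltf, Ngp, Camp and Itgb2l, an integrin beta-2-like gene, the log2 fold changes were -2.25, -2.14, -2.05 and -2.31, and for Cd177, a neutrophil surface antigen, and Pygl they were -1.0 and -0.73. With O group library 1 left out, those of Ltf, Ngp, Camp and Itgb2l were -0.51, -0.47, -0.38 and -0.52.

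Without O group library 1, 5 of these were called (Anxa1, Chil3, Ifitm6, Cd177 and Prtn3). The count was 6 without S group library 5, 7 without S group library 2 and 19 without S group library 4, where 5.84%, 5.57% and 6.46% of all genes were lower, beside 5.65% without O group library 1. The medians of this comparison were -1.18 over 14 secondary granule genes and -0.83 over 17 late-stage genes, beside 0.00 over all genes tested. They were -0.52 and -0.55 without O group library 1, and the late-stage median was -0.42 without O group library 4, while both were larger in size, at -1.78 and -1.43, without S group library 4. As CPM of the raw totals, erythroid genes summed to 33384 to 89223 CPM in S group against 67357 to 261494 in O group, T cell markers to 509 to 784 against 210.1 to 532, and NK cell markers to 322 to 413 against 83.8 to 261, and their part in the result was not tested. Chil3, Anxa1 and Ifitm6 stayed past the threshold under each alternative tried. Monocyte markers (Csf1r, Ccr2, Cx3cr1, Ly6c2, F13a1, Fcgr1, Ms4a6c) summed to 1277 to 2255 CPM of the raw totals in S group and 1277 to 2027 in O group. Which cells carried the mRNA of Chil3, Anxa1 and Ifitm6 was not tested.

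The remaining members had fewer calls and are given by their range over the 15 libraries of a tissue. Among secondary granule genes, Cd177 ranged over 1.31 to 52.1 CPM in platelets and 38.5 to 287 CPM in PBMCs. Lrg1, a leucine-rich glycoprotein, ranged over 1.97 to 60.1 CPM in platelets and 3.61 to 197 CPM in PBMCs, and Itgb2l ranged over 0 to 6.46 CPM in platelets and 0.455 to 40.5 CPM in PBMCs. Itgb2l was read in 6 of 15 platelet libraries and O group library 1 held the highest value. Cebpe, the transcription factor that drives secondary granule genes, ranged over 0.258 to 5.81 CPM in platelets and 0.769 to 18.9 CPM in PBMCs, and its PBMC values were 12.7, 1.86, 2.96, 3.39 and 0.769 CPM in C group, 18.9, 1.68, 2.09, 1.08 and 1.55 in S group, while O group was at 14.8, 5.11, 2.13, 1.86 and 1.91. Libraries 1 were the highest of each group, and in C group and S group these are the libraries with the most eosinophil marker counts, whose part in this was not tested. Among late-stage genes, Mmp9 ranged over 3.36 to 217 CPM in platelets and 17 to 599 CPM in PBMCs, and Mmp25, a membrane-bound metalloproteinase, over 0.323 to 11.2 CPM in platelets and 4.43 to 59 CPM in PBMCs. Il1r2, the decoy receptor of interleukin 1, ranged over 0.323 to 8.48 CPM in platelets and 1.62 to 73.9 CPM in PBMCs. The receptors Trem1 and Trem3 ranged over 3.82 to 23.8 CPM in platelets and 8.42 to 169 CPM in PBMCs, and over 1.48 to 4.71 CPM in platelets and 8.48 to 33.1 CPM in PBMCs. Slfn4, of the Schlafen family with close relatives, ranged over 2.59 to 146 CPM in platelets and 60.6 to 1138 CPM in PBMCs, and PBMC O group library 4 was highest. In platelets O group library 1 was the highest for each of these genes except Cebpe.

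S group against C group in PBMCs gave 0 of 33 members called by edgeR and 0 by DESeq2, where 1.23% of all 15139 genes tested were higher and 1.41% lower. Chil3 had the smallest P, with -0.63 ± 0.32 (SE, adjusted P = 1), followed by Ltf with -1.01 ± 0.59 (SE, adjusted P = 1) and Ngp with -0.99 ± 0.61 (SE, adjusted P = 1). The median was -0.19 over 14 secondary granule genes, 12 of them with a negative value, and 0.33 over 17 late-stage genes, 14 of them with a positive value. These signs rested on the libraries numbered 4. Leaving out S group library 4 gave medians of -0.63 and -0.23, with 30 of the 33 members negative, and leaving out C group library 4 gave 0.12 and 0.95, with 27 of 33 positive. In this comparison the library numbers paired the libraries. With the number as a block, 1 member, the gelatinase gene Mmp9, had an unadjusted P under 0.05, at 0.51 ± 0.21 (SE) on the log2 scale, a share of members near the 2.5% of all genes that were higher in that fit. PBMC Pglyrp1 was at 101, 50.1, 62.8, 71.4 and 47.9 CPM in C group, 97.1, 48.4, 50.1, 80.5 and 47.3 in S group, while O group was at 169.6, 60.2, 47.9, 123 and 45.2, with a log2 fold change of -0.03 ± 0.25 (SE, adjusted P = 1).

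No member had a Benjamini-Hochberg adjusted P under 0.05 with edgeR in any of the 6 comparisons within a tissue. Over all genes tested, 1 gene (0.00754%) did so in platelets of S group against C group and 5 (0.0330%) in PBMCs of S group against C group, and 0 genes (0.0%) in the 4 comparisons with O group. With DESeq2, 8 and 21 genes did so in the 2 comparisons of S group with C group, and 12 to 248 in those with O group. DESeq2 gave 2 members at that level in platelets of S group against O group, named above, and 1 in PBMCs, Chil3 (0.0331).

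The members kept different proportions to each other in the 2 tissues and between PBMC libraries. Ngp had 0.312 to 8.73 counts per 100 counts of S100a8 in platelet libraries and 3.66 to 71.2 in PBMC libraries. In platelets the highest was O group library 1, and in PBMCs S group library 4 (4.02) and O group library 4 (3.66) were below all other libraries, which ranged from 17.2 up. C group library 4, the highest of its group in S100a8, had 41.1. In sum, secondary granule genes had 11 to 31 counts per 100 late-stage counts in platelets and 24.2 to 127 in PBMCs. S group platelets had 18.6 to 31 and O group platelets 11 to 20.3, and these ranges overlapped. The ratio of S100a8 to S100a9 counts varied less, from 0.624 to 0.952 in platelets and from 0.752 to 0.923 in PBMCs. These ratios come from raw counts of 1 library and do not depend on its scaling, and counting error on Ngp is large in platelets.

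**Figure D4:**
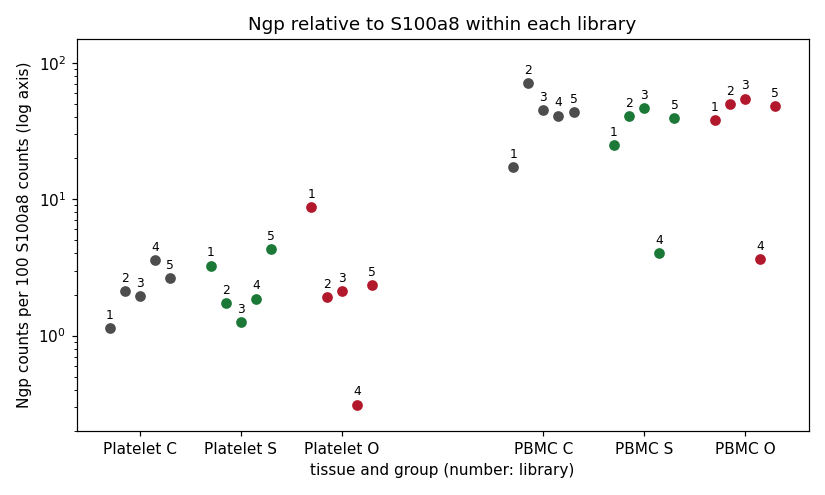
Ngp counts per 100 S100a8 counts (y axis, log scale) in each library, by tissue and group (x axis), with the library number above each point. PBMC libraries lie at 17.2 to 71.2 apart from S4 (4.02) and O4 (3.66), and platelet libraries at 0.312 to 8.73.

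Platelets and PBMCs were set against each other in 1 fit of the 30 libraries that took the group into account and used a shared scale, and 32 members were tested in it. At a Benjamini-Hochberg adjusted P under 0.05, 25 were lower in platelets and 1 higher, where 44.7% of all 14342 genes tested were lower and 36.7% higher. The secondary granule genes were lower in 12 of 14 cases with a median log2 fold change of -2.20, and the late-stage genes in 12 of 17 with a median of -0.98, beside -0.12 over all genes. Chil3 had the largest difference in size, -3.23 ± 0.33 (SE, adjusted P = 3.01e-10), and in platelets its values were 27.5, 3.93, 22.1, 8.88 and 5.94 CPM in C group, 23.4, 12, 13.2, 7.5 and 30.2 in S group, while O group was at 57.7, 9.36, 26.5, 5.3 and 4.96. Clec4e was at 6.17, 1.84, 6.57, 2.52 and 2.45 CPM in platelets of C group, 3.51, 3.5, 4.85, 2.73 and 5.37 in S group, while O group was at 21.3, 3.83, 5.68, 2.98 and 3.27, with a difference of -2.79 ± 0.34 (SE, adjusted P = 7.44e-09). Hp was at 38.2, 8.43, 37.1, 10.2 and 7.81 CPM in platelets of C group, 19.2, 14.2, 24.8, 9.36 and 31.4 in S group, while O group was at 115, 12.1, 22.6, 9.34 and 11.5. The difference of Hp was -2.41 ± 0.31 (SE, adjusted P = 2.4e-08). On the shared scale the PBMC values of Chil3 and Hp had medians of 211 and 157 CPM and their platelet values 18.1 and 21.3 CPM. Chil3 is a family gene with close relatives, and reads shared with them may have been lost or split in counting. Which cells carried the mRNA of Chil3, Clec4e and Hp was not tested.

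The other called members were lower in platelets by these log2 fold changes, -3.07 for Itgb2l, -2.9 for Ngp, -2.76 for Camp, -2.61 for Cd177, -2.38 for Ltf, -2.01 for Mmp8, -1.99 for Lcn2, -1.23 for Lrg1, -0.94 for Pglyrp1, -0.81 for Prtn3 and -0.70 for Ifitm6. The value of Itgb2l was -5.1 without platelet O group library 1, which held 48 counts of it against 0 to 4 in each other platelet library, and -2.48 without PBMC O group library 1. Among late-stage genes they were -2.49 for the decoy receptor Il1r2, -2.46 for Slfn4, -2.17 for Mmp25, -1.76 for Ly6g, -1.49 for Csf3r, -1.24 for Mmp9, -1.04 for Padi4, -0.98 for Retnlg, -0.95 for Trem3, -0.80 for Trem1 and -0.48 for Pygl. S100a8 (0.01 ± 0.50 SE, adjusted P = 0.979) and S100a9 (0.13 ± 0.49 SE, adjusted P = 0.81) were not called, nor were Cebpe, Wfdc21, Anxa1 and Cxcr2. The 95% interval of the S100a8 difference, -1.01 to 1.04 on the log2 scale (t distribution with the residual degrees of freedom), allows about a 2-fold difference either way. The median of S100a8 on the shared scale was 163 CPM in platelets and 63.1 CPM in PBMCs, so the medians differed where the fitted means did not pass the threshold. With platelet and PBMC libraries of 1 group and number taken as pairs, the differences were 0.66 ± 0.39 (SE) for S100a8 and 0.81 ± 0.39 (SE) for S100a9, neither called, and 23 members were lower and 1 higher.

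**Figure D5:**
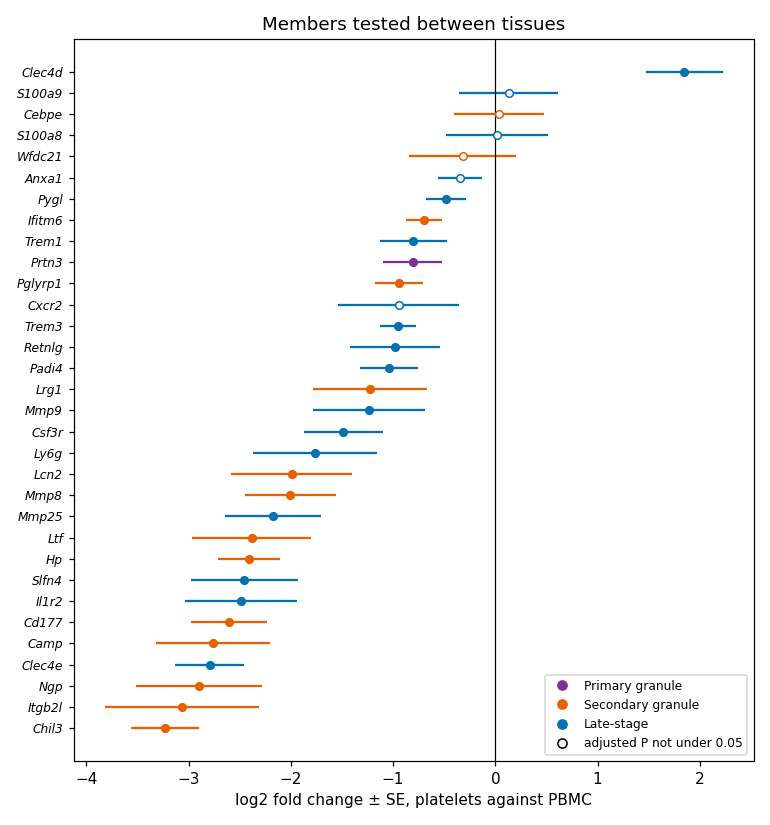
Log2 fold change with SE of platelets against PBMCs (x axis) for the 32 members tested (y axis, sorted), colored by class; open circles have an adjusted P of 0.05 or more. Clec4d alone is called above 0, S100a8, S100a9 and Cebpe lie near 0, and most secondary granule genes lie below -2.

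Clec4d was the exception among the members. In platelets it was at 80.8, 41.8, 36.4, 30.7 and 26 CPM in C group, 36.9, 36.2, 51.7, 24.4 and 22.6 in S group, while O group was at 38.1, 42.8, 23.8, 30.2 and 12.6. It was higher in platelets than in PBMCs by a log2 fold change of 1.85 ± 0.37 (SE, adjusted P = 4.53e-05). Its neighbour Clec4e, which encodes a related receptor on the same stretch of chromosome 6 in the opposite orientation, was lower in platelets. The response to large tumors was tested between tissues as the platelet difference of O group and C group less the PBMC difference. It was called for 1 of 33 members, Clec4d, with -1.95 ± 0.82 (SE, adjusted P = 0.67) and a Benjamini-Hochberg adjusted P of 0.67, where 3.89% of all 16498 genes tested had a positive and 2.71% a negative difference at an unadjusted P under 0.05, and 0.0% passed after adjustment, so that the share of members called was near the background. The call was lost without PBMC O group library 4, at -1.09. Clec4d had -0.56 ± 0.35 (SE, adjusted P = 0.91) in platelets and 1.51 ± 0.67 (SE, adjusted P = 0.41) in PBMCs, each from its own fit. The same test for S group against C group called 0 of 33 members with edgeR and 0 with DESeq2 at an unadjusted P under 0.05, where 3.33% of all 16498 genes tested had a positive and 2.05% a negative difference, and 0.0% passed after adjustment. For S100a8 the tissue differences were 0.11 ± 1.21 (SE, adjusted P = 1) in O group and -1.15 ± 1.21 (SE, adjusted P = 1) in S group, so that neither was detectable with this spread.

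Of 39 other neutrophil genes, none of them members, 33 were tested in platelets of O group against C group, and 5 were higher and 0 lower, where 2.61% and 2.17% of all genes were. Without O group library 1 there were 0, at 1.8% and 2.57% of all genes. Stfa1 and Stfa2l1, stefins of neutrophils, had 2.81 ± 0.98 (SE, adjusted P = 0.91) and 2.13 ± 0.80 (SE, adjusted P = 0.91), and Ltb4r1, the leukotriene B4 receptor, had 1.78 ± 0.67 (SE, adjusted P = 0.91). Leaving out O group library 1 gave log2 fold changes of 1.2, 0.82 and 1.07 in the same order. The stefin genes form a cluster of near-identical copies, so reads may have been split among them. In platelets of S group against O group 9 of 34 were lower and 1 higher, beside 6.67% and 7.23% of all genes, led by Cebpb, a transcription factor of emergency granulopoiesis (-0.69 ± 0.18 SE, adjusted P = 0.225), Stfa2l1 (-2.54 ± 0.68 SE, adjusted P = 0.226) and the histidine decarboxylase gene Hdc (-1.48 ± 0.43 SE, adjusted P = 0.258). Without O group library 1, 7 were lower and 4 higher, beside 6.41% and 8.51% of all genes. Cebpb, Stfa2l1 and Hdc were then at -0.71, -1.28 and -0.80. S group against C group gave 2 of 32 higher, Cebpa (0.51 ± 0.18 SE, adjusted P = 0.746) and Cxcr4 (0.72 ± 0.27 SE, adjusted P = 0.746), and 0 lower, a share near the 4.29% of all genes that were higher. Cxcr4 is among the markers that the study picked from these platelet libraries, so its value is no independent evidence.

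PBMCs of O group against C group gave 8 of 33 of these genes higher and 0 lower, beside 7.56% and 4.39% of all genes, among them Ptafr, the platelet-activating factor receptor (1.05 ± 0.28 SE, adjusted P = 0.337), and Cebpb (0.62 ± 0.22 SE, adjusted P = 0.355). The count was 5 without O group library 1, beside 6.2% of all genes. PBMCs of S group against O group gave 6 lower and 1 higher of 33, beside 7.80% and 4.43% of all genes, among them the repressor Gfi1, which was higher in S group (0.56 ± 0.12 SE, adjusted P = 0.296), and Ptafr (-0.88 ± 0.29 SE, adjusted P = 0.318), and 3 were lower and 1 higher without O group library 1, beside 5.65% and 4.01% of all genes. In S group against C group 0 of 32 passed with edgeR. Cebpb, Ptafr and Spi1 are also expressed by monocytes, whose 7 markers summed to 1277 to 2297 CPM in PBMC libraries. Between tissues 21 of 32 were lower in platelets and 6 higher, beside 44.7% and 36.7% of all genes, led by the chemokine Cxcl5, which was higher in platelets (4.7 ± 0.27 SE, adjusted P = 8.81e-16), Cebpb (-2.87 ± 0.19 SE, adjusted P = 1.19e-14) and the oxidase subunit Cybb (-2.61 ± 0.17 SE, adjusted P = 2.05e-14). The list does not hold genes of neutrophils alone, and which cells carried these mRNAs was not tested. Of the tissue differences in response, 1 of 37 genes passed in O group, G0s2 (-1.78 ± 0.86 SE, adjusted P = 0.754), and 0 of 37 in S group, shares at or under those of all genes.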

How the data were processed

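RNA of 30 pooled libraries was sequenced by the authors, whose deposited files hold raw read counts per gene for platelets and PBMCs. The submitters' processing notes name HISAT2 2.0.5, featureCounts 1.5.0-p3, DESeq2 1.16.1 and the mm9 build, and the library kit does not keep strand. Of 54532 gene IDs, 54409 were matched to a symbol. The 37 members, their classes and all gene lists were chosen with earlier results of these data known. Values in every library are given for 15 listed members and the 3 with the smallest P of each comparison, and every member past the threshold is named.

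Groups come from the labels. Genes were kept with filterByExpr, scaled with TMM and fitted over all genes by the edgeR quasi-likelihood test (edgeR 4.0.16, R 4.3.3, two-sided), 10 libraries a pairwise comparison and 30 for comparisons between tissues. As in the study's own rule, members were counted at an unadjusted P under 0.05, with Benjamini-Hochberg adjustment beside it, and class medians were taken for classes with at least 3 tested members. Scripts were tested on simulated data. Alternatives were DESeq2 1.42.0, RLE size factors, all genes with at least 1 count, all 3 groups in 1 fit, library number as a block and leaving out each library. Leaving out the libraries numbered 1 or 4 in both groups, and pairing platelets with PBMCs by group and number, were chosen after seeing the data. Library numbers paired PBMCs of S group and C group, where same-numbered libraries deviated together in every pair (correlations 0.21 to 0.51), and in no other 2 groups did every pair. Depth was 12259036 to 25360080 counts in platelets (median 17140564) and 13390983 to 15973449 in PBMCs (median 14684708), so that 1 read is under 0.1 CPM before TMM scaling, and single reads limit the primary granule genes. Results of some genes are not reported here.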

Additional observations from a re-analysis of the deposited data

Results flagged for a closer look

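In 61 of 150 groups of 5 libraries (25 members, both tissues, 3 groups), 1 library lay apart from the other four by a gap above Dixon's 95% critical value of 0.71 of the group's whole range. Chance gives this in about 1 in 20 such groups of normally distributed values, which these skewed CPM are not, and the members share libraries, so these values are not independent. Each such value was the highest of its group. The values are CPM after TMM scaling. O group library 1 of platelets stood apart for S100a8 1303, S100a9 1368, Ngp 114, Ltf 64.8, Camp 15.5, Lcn2 109.9, Mmp8 82.7, Cxcr2 101, Csf3r 308, Ly6g 7.0, Retnlg 180.0, Anxa1 222, Clec4e 21.3, Hp 115, Ifitm6 66.7, Padi4 36.6, Pglyrp1 59.2, Pygl 167 and Wfdc21 40.0. In platelet library 2 of S group the values that stood apart were S100a8 108, S100a9 150.3 and Ifitm6 19.8. C group library 3 of platelets stood apart for Ngp 4.62 and Fcnb 0.0973. In platelet library 5 of S group the values that stood apart were Fcnb 0.0521 and Csf3r 74.7. Platelet library 5 of C group stood apart for Elane 0.258. Platelet library 4 of S group stood apart for Elane 0.0414. Platelet library 5 of O group stood apart for Elane 0.153. Platelet library 1 of C group stood apart for Clec4d 80.8. C group library 4 of PBMCs stood apart for S100a8 607, S100a9 657, Ngp 249, Ltf 204, Camp 41.2, Lcn2 158, Mmp8 107, Elane 0.848, Mpo 2.12, Prtn3 11, Ly6g 9.2, Anxa1 168, Ifitm6 121 and Wfdc21 24.4. In PBMC library 4 of S group the values that stood apart were S100a8 895, S100a9 1157, Lcn2 118, Mmp8 94.7, Cxcr2 182, Csf3r 861, Ly6g 11.5, Clec4d 72.6 and Wfdc21 20.1. O group library 1 of PBMCs stood apart for Ngp 632, Ltf 584 and Camp 124. In PBMC library 3 of S group the values that stood apart were Ngp 70.1 and Ltf 63. C group library 1 of PBMCs stood apart for Retnlg 388 and Padi4 80.0. PBMC library 1 of S group stood apart for Padi4 77.6. For Elane and Fcnb in platelets, 5 of the 61 cases, the library that stood apart was the one library of its group with any read, which fixes the ratio at 1, so these carry no information. The response of Clec4d to large tumors differed between the tissues at an unadjusted P under 0.05 in a test of the difference itself, and not after adjustment (log2 difference of -1.95, platelets less PBMCs, Benjamini-Hochberg adjusted P = 0.67, edgeR quasi-likelihood test), with a range of -2.23 to -1.09 when 1 of the 30 libraries was left out, and the call was lost at -1.09, without PBMC O group library 4.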

How the results depend on the processing

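With all genes of at least 1 count in place of the filter, the members called were 7 (platelets, S against C group, 4 higher and 3 lower beside 4.75% and 2.97% of all genes), 20 (S against O, 19 lower, 5.1%), 17 (O against C, all higher, 3.19%), 6 and 7 (PBMCs, S against C, 5 lower, 0.972%, and O against C, all higher, 5.09%), and 1 and 3 for the tissue differences in S and O group. DESeq2 gave 4 in platelets of S against C group, 2 higher and 2 lower beside 2.81% and 1.64% of all genes. It gave 7 in S against O group, all lower, beside 4.08%. For platelets of O against C group it gave 6, and for the tissue difference in O group 3. One fit of all 3 groups gave 0 in platelets of S against C group, beside 3.58% of all genes higher and 1.39% lower, and 5 in PBMCs of O against C group. With library number as a block the counts were 8 (platelets, S against O), 1 (PBMCs, S against C, beside 2.5% of all genes higher), 15 (PBMCs, O against C, all higher, beside 7.36%) and 2 (tissue difference in O group). Where a count in this section has no share of all genes beside it, it shows how far the count moved. Such a count is no result about the members. Same-numbered libraries deviated together in every pair (correlation over 0.1) for PBMCs of S against C group alone, where all 10 libraries matched their own number best. The correlations were 0.097 to 0.34 in PBMCs of S against O group (8 of 10 best), 0.040 to 0.37 in PBMCs of O against C group (5 of 10) and -0.033 to 0.37 in platelets of O against C group (7 of 10), so pairing there is not established. The block moved no other count of members by over 1.5 times, but brought the secondary granule and late-stage medians to -0.43 and -0.43 (platelets, S against O), 0.84 and 0.90 (platelets, O against C) and, secondary granule genes, 0.63 (PBMCs, O against C). The study took PBMCs from the blood left after platelet-rich plasma, and platelet and PBMC libraries of 1 number correlated at 0.067 to 0.45 in O group, whose pool sizes are equal in both tissues, at -0.063 to 0.15 in C group and at -0.077 to 0.15 in S group. With these as pairs, an alternative added after seeing the data, 24 members were called between tissues, without Retnlg, Lrg1 and Trem1 and with Anxa1, and 1 and 2 for the tissue differences in S and O group.

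Leaving out 1 library at a time gave 0 to 3, 9 to 18 and 3 to 14 members in platelets (S against C, S against O, O against C), 0 to 1, 5 to 19 and 0 to 21 in PBMCs, and 1 to 6 for the tissue difference in O group. The share of all genes moved as well, in platelets of S against C group from 2.48% to 6.99% higher and from 1.15% to 4.43% lower. In platelets of O against C group the count of members was 3 without O1 (beside 1.8% of all genes higher), 4 without C4 or C5 and 5 without C2. Median log2 fold changes of secondary granule and late-stage genes ranged from -1.73 to 0.052 and -1.49 to -0.035 (platelets, S against O), -0.12 to 2.18 and -0.082 to 1.70 (platelets, O against C) and, secondary granule genes, 0.13 to 1.90 (PBMCs, O against C). For the tissue difference in O group they ranged from -1.05 to 1.62 and -1.33 to 0.63. Mmp8 (platelets, S against O) ranged from -2.58 to 0.052, and Lcn2 (platelets, O against C) from -0.45 to 2.98, both turning without O1.

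Without libraries 1 of both groups, the counts were 2 (platelets, O against C), 4 (PBMCs, S against O) and 0 (PBMCs, O against C, beside 4.47% of all genes higher), Mmp8 was at 0.053 and Lcn2 at -0.25, and the medians were 0.053 and -0.013 (platelets, S against O), 0.16 (secondary granule genes, platelets, O against C) and 0.18 (the same, PBMCs). Without libraries 4 of both groups, the counts were 3 (platelets, S against C) and 15 (PBMCs, O against C, all higher, beside 5.51% of all genes). Summed primary granule counts in PBMCs had a mean of 6.97 CPM of the raw totals in O group, 8.50 with TMM and 8.53 with RLE scaling, against 7.47, 6.79 and 6.76 in C group, so that the order of the group means turned with scaling. C group library 4, at 18.2 CPM of the raw totals, raised the C group mean, and the medians on that scale were 6.87 in O group and 5.505 in C group. The cause of these changes was not tested. Members near the floor of 3 counts, mostly primary granule genes, could not be compared at this depth.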
